A study of Mus musculus with 6 samples.

Results

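The matrix metalloproteinase (Mmp), tissue inhibitor of metalloproteinases (Timp) and Adamts gene families were examined in mouse colorectal tumours grown at 2 sites. The tumours grew from mouse colorectal cancer injected either in white adipose tissue, which stores fat, or in non-adipose tissue, and were taken at 1 to 1.5 cm3. Each group held 3 tumours from 3 mice, each on its own Affymetrix whole-transcript array, whose deposited values are log2 signals of probe sets. The labels do not name the cell line, the mouse strain or the age of the mice, and they do not say which non-adipose tissue was used. Genes were taken by symbol, as those that start with Mmp, Timp or Adamts and a number, together with the Adamts-like genes (Adamtsl). Of the 22180 genes with a probe set of their own, 49 qualified: 22 Mmp, 4 Timp, 18 Adamts and 5 Adamtsl genes.

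Matrix metalloproteinases are zinc-dependent enzymes, most of them secreted as inactive precursors, that cut collagens, laminins, elastin and other proteins of the extracellular matrix. Timps bind the active site of these enzymes and block it, and the Adamts enzymes are secreted relatives that cut proteoglycans, trim procollagens or process fibrillin microfibrils. In tumours much of this activity comes from stromal and immune cells as well as from the cancer cells. Several Mmp genes are switched on by the transcription factor AP-1, a dimer of Fos and Jun proteins.

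The arrays correlated with each other at 0.983 to 0.995 over all genes. White adipose replicate 1 stood apart in its skin epithelial markers, whose mean log2 signal over 7 genes was 8.31 on that array, 5.31 and 5.43 on white adipose replicates 2 and 3, and 5.37 to 6.05 on the non-adipose arrays. Skeletal muscle markers (7 of 7 lower in the white adipose mean) ran from 5.56 to 5.73 on the white adipose arrays and were 6.49, 5.62 and 7.23 on non-adipose replicates 1, 2 and 3. The 10 intestinal epithelial markers lay between the 23.3 percentile of all genes by mean signal for Vil1 and the 96.1 percentile for Krt8, with Cdh1 at 66.9 and Epcam at 29.1, although such percentiles also depend on each probe set. Of 5 measured adipocyte markers, 4 had a higher and 1 a lower white adipose mean (49.7% of all genes had a higher one). Their mean was 5.05, 5.06 and 5.37 on the white adipose arrays and 5.12, 5.14 and 5.04 on the non-adipose arrays. They lay between the 15.6 percentile for Adipoq and the 49.6 percentile for Retn. Adipoq, the dimmest, had 4.10, 4.13 and 4.27 in white adipose tumours, against 4.14 on each non-adipose array. Fibroblast markers had 4 higher and 4 lower white adipose means, and endothelial markers 3 and 3. All 4 measured T cell markers had a higher one, but their list mean was highest on non-adipose replicate 3 (6.75, against 5.53 to 6.48 elsewhere). All 6 measured proliferation markers had a lower one, with list means of 9.45 to 9.68 on the white adipose and 9.52 to 9.81 on the non-adipose arrays. In tumour tissue, fewer cells of a type and less RNA per cell cannot be told apart.

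The comparison asked which of these proteases and inhibitors differed between tumours of the 2 sites. Mmp3, Mmp9 and Timp3 had lower signals in the white adipose tumours, by 1.77, 1.64 and 1.60 fold, and Adamtsl5 had a higher signal, by 1.28 fold. None of the 49 genes passed an adjusted p of 0.05 in limma with Benjamini-Hochberg adjustment over all genes, and neither did any other gene on the array (0% called; the smallest adjusted p was 0.936). At an unadjusted p under 0.05, limma gave 368 genes higher and 473 lower over the whole array. Among the 49 genes, 4 were at that level (8.16%, against 3.79% of all genes): 3 were lower, or 6.12% against 2.13% of all genes, and 1 was higher, or 2.04% against 1.66%. The white adipose arrays did not overlap the non-adipose arrays for 6 of the 49 genes (12.2%, against 7.31% of all genes), 4 of them lower (3.97% of all genes were) and 2 higher (3.34% of all genes were). The family had no common direction: by their means 29 genes were higher in white adipose tumours (59.2%, against 49.7% of all genes) and 20 were lower (50.2% of all genes were), with a median log2 difference of 0.038 against -0.00043 over all genes. Mmp3 and Mmp9 stayed at an unadjusted p under 0.05 in limma whichever array was left out, whereas Timp3 did so in 1 and Adamtsl5 in 3 of the 6 cases.

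**Figure D1:**
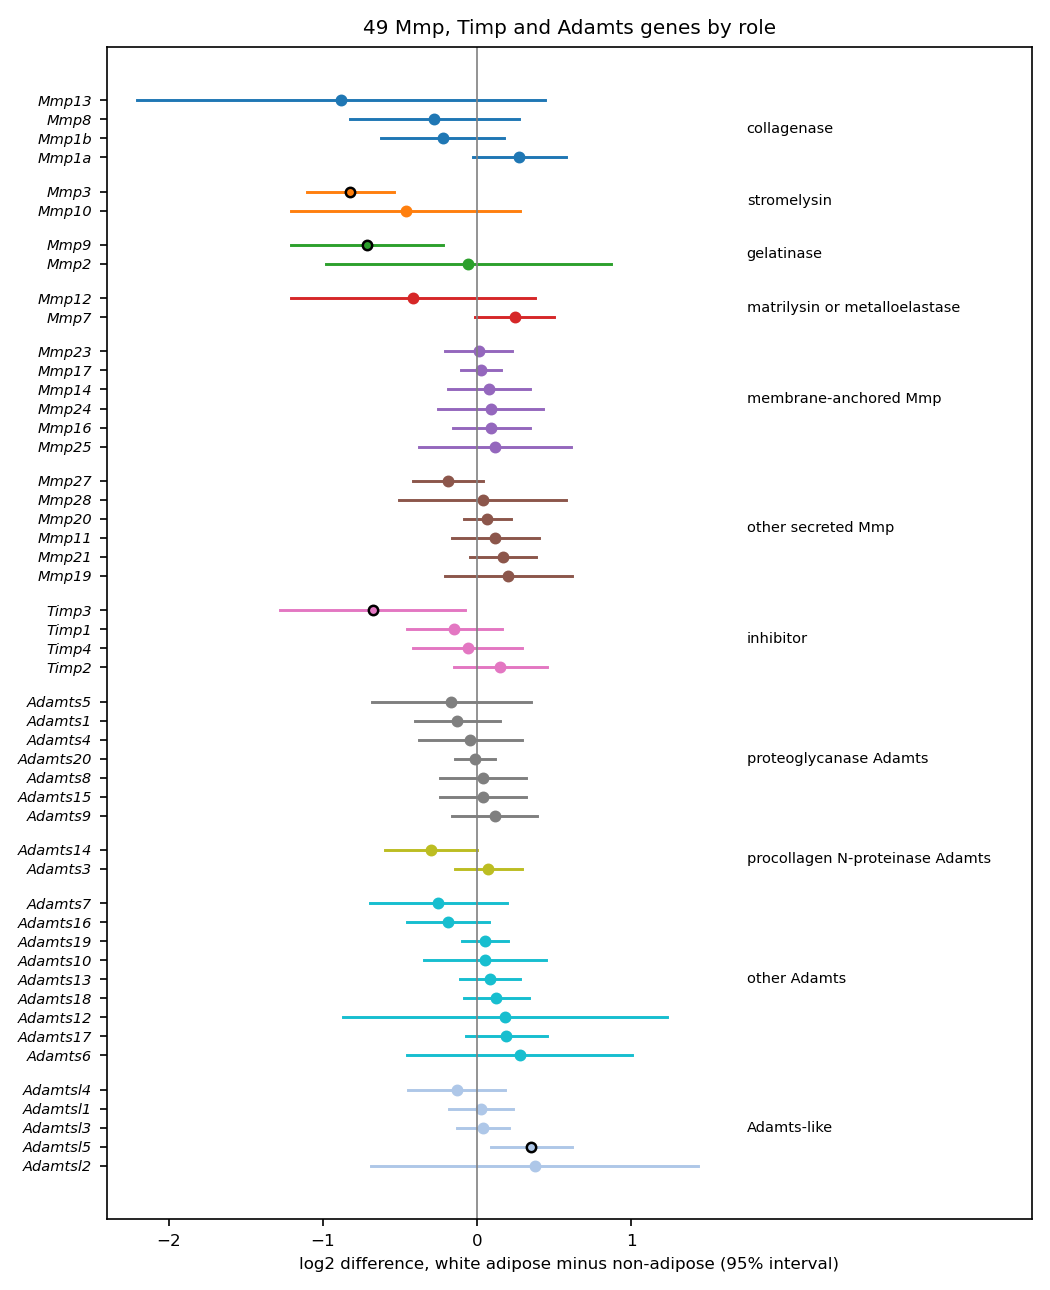
Log2 difference (white adipose minus non-adipose) of each of the 49 genes, grouped by role, as a point with its 95% interval from limma; black rims mark the 4 genes at an unadjusted p under 0.05. Mmp3, Mmp9 and Timp3 lie left of 0 and Adamtsl5 right of it, and the intervals of the other 45 genes include 0.

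Mmp3, stromelysin-1, cuts proteoglycans, laminin and fibronectin and activates other Mmp precursors. Its log2 signal was 4.65, 4.67 and 4.53 in white adipose tumours, against 5.40, 5.26 and 5.67 in non-adipose tumours. All 3 white adipose arrays lay below all 3 non-adipose arrays, and the gap between the groups exceeded the spread within either. The means were 4.62 ± 0.078 in white adipose and 5.44 ± 0.21 in non-adipose tumours (SD, n = 3 each). The log2 difference was -0.82 (SE 0.12, 95% interval -1.10 to -0.54; limma adjusted p = 0.936), and it ran from -0.91 to -0.71 with 1 array left out. Mmp3 lay at the 30.9 percentile of all genes by mean signal, with no detection call at hand.

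Mmp10, stromelysin-2, is the close relative of Mmp3. It had 5.58, 5.22 and 5.46 in white adipose tumours and 6.59, 5.61 and 5.44 in non-adipose tumours. Only non-adipose replicate 1 stood above the other 5 arrays by a wide margin, and the groups overlapped. The log2 difference of -0.46 (SE 0.31) shrank to -0.11 without that array.

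Mmp13, the main enzyme for fibrillar collagen in rodents, had the largest difference in size of the 49 genes and a wide error. Its log2 signal was 5.96, 4.90 and 5.19 in white adipose tumours, against 7.37, 5.39 and 5.95 in non-adipose tumours. White adipose replicate 1 lay above 2 of the non-adipose arrays, so the groups overlapped. The log2 difference was -0.88 (SE 0.54, 95% interval -2.21 to 0.44; limma adjusted p = 0.936). It was -0.32 without non-adipose replicate 1 and -1.31 without non-adipose replicate 2.

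The other collagenases gave smaller differences. Mmp8, which neutrophils store in granules, had 4.42, 5.08 and 4.80 in white adipose tumours and 5.35, 4.69 and 5.08 in non-adipose tumours, a log2 difference of -0.28 (SE 0.22). Its groups overlapped, and its highest value was again in non-adipose replicate 1. Neutrophil markers (6 of 10 with a lower white adipose mean) averaged 4.77, 4.97 and 5.04 on the white adipose arrays. Their mean was 5.32, 4.78 and 5.22 on non-adipose replicates 1, 2 and 3, highest on the same array as Mmp8. Singly, S100a8, S100a9 and Retnlg were highest on that array. Ly6g, Csf3r and Cxcr2 were highest on non-adipose replicate 3, Camp on non-adipose replicate 2, and Mpo and Ltf on white adipose replicate 3. Ngp shared its highest value between arrays. The part of these markers in the Mmp8 values was not tested. The Mmp8 difference was -0.10 when white adipose replicate 1 was left out and -0.45 when non-adipose replicate 2 was.

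Mmp1a and Mmp1b, the paired mouse counterparts of human interstitial collagenase, lay at the 3.72 and 2.60 percentiles of all genes. Mmp1a had 3.00, 2.53 and 2.79 in white adipose tumours and 2.53, 2.43 and 2.53 in non-adipose tumours. Mmp1b had 2.29, 2.23 and 2.29 in white adipose tumours and 2.32, 2.29 and 2.88 in non-adipose tumours. Signals this low have no detection call beside them, and probe sets of such close copies can also bind each other's transcripts.

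**Figure D2:**
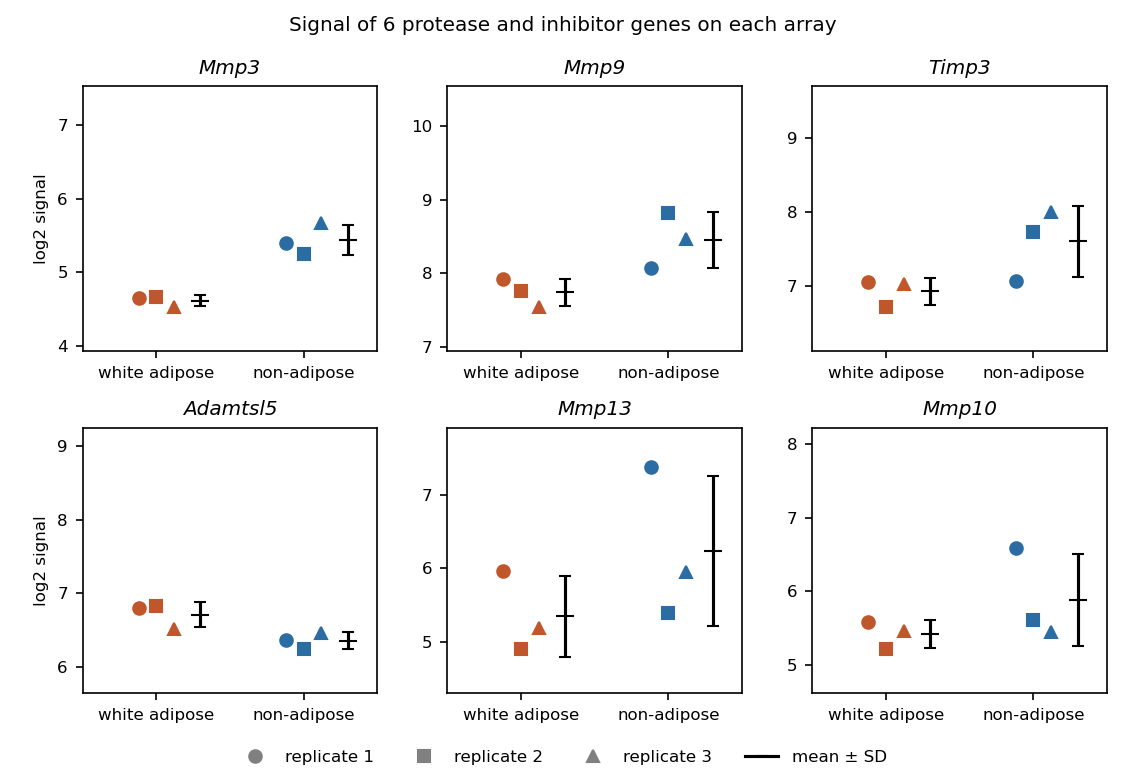
Log2 signal of Mmp3, Mmp9, Timp3, Adamtsl5, Mmp13 and Mmp10 on each array, white adipose left and non-adipose right, with the mean ± SD of each group (n = 3); the axes span the same number of log2 units and do not start at 0. The groups do not overlap for Mmp3, Mmp9, Timp3 and Adamtsl5, though their nearest values lie close together for Mmp9, Timp3 and Adamtsl5. Non-adipose replicate 1 (circle) stands high for Mmp13 and Mmp10.

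In the RefSeq annotation of GRCm38.p6, 10 Mmp genes follow each other on chromosome 9 with 0 other protein-coding genes between them, in the order Mmp13, Mmp12, Mmp1b, Mmp3, Mmp1a, Mmp10, Mmp8, Mmp27, Mmp20 and Mmp7. Of these, 7 were lower and 3 higher by their means, with a median log2 difference of -0.25. They are related copies in one region and not independent of each other.

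RefSeq promoter windows (250 bases before to 50 after the start of transcription, GRCm38.p6) were matched for 34 of the 49 genes. The AP-1 motif was searched as TGANTCA on both strands, a pattern that reads the same on either strand. It was present for 8 of the 34 genes, or 23.5%, against 8.97% of the 27025 genes with a window. All 8 belong to the chromosome 9 run. The stricter form TGACTCA on either strand, tried after these matches were seen, was present for 7 of the 34 (20.6%, against 5.95% of genes); Mmp20 holds only the looser form. The 100 bases before the start are shown for these 8 genes, because the run includes Mmp3 and Mmp13 and because each match lies within those 100 bases; capitals mark the motif.
Mmp3, chr9:7445722-7445821, plus strand: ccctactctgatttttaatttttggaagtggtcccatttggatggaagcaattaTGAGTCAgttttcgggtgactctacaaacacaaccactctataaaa
Mmp10, chr9:7502242-7502341, plus strand: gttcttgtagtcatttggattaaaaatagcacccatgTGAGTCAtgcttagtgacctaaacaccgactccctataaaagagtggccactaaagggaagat
Mmp13, chr9:7272414-7272513, plus strand: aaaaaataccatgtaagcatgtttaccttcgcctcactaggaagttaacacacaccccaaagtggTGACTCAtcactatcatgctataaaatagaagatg
Mmp12, chr9:7347274-7347373, plus strand: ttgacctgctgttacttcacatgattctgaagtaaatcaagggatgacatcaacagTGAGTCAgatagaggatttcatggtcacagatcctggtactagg
Mmp1b, chr9:7388027-7388126, minus strand: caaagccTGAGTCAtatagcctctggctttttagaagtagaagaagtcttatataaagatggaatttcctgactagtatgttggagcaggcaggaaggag
Mmp1a, chr9:7464041-7464140, plus strand: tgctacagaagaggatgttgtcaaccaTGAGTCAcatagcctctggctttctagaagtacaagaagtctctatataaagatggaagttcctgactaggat
Mmp20, chr9:7628131-7628230, plus strand: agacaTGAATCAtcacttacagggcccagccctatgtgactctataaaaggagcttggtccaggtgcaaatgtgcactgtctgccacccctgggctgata
Mmp7, chr9:7691990-7692089, plus strand: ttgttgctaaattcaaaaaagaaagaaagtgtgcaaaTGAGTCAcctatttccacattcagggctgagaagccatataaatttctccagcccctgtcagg

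The first base of the motif lay 46 bases before the start in Mmp3, 63 in Mmp10, 35 in Mmp13, 44 in Mmp12, 93 in Mmp1b, 73 in Mmp1a, 95 in Mmp20 and 63 in Mmp7. For Mmp12 and Mmp7 it was in 1 of 2 annotated windows. Of the 8 genes with the motif, 5 were lower and 3 higher by their means. Of the genes with a window and no motif, 9 were lower and 17 higher. The higher ones with the motif were Mmp1a, Mmp20 and Mmp7, and whether the motif goes with the direction was not tested. A match is only a run of letters in the window and does not show that a factor bound there.

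**Figure D3:**
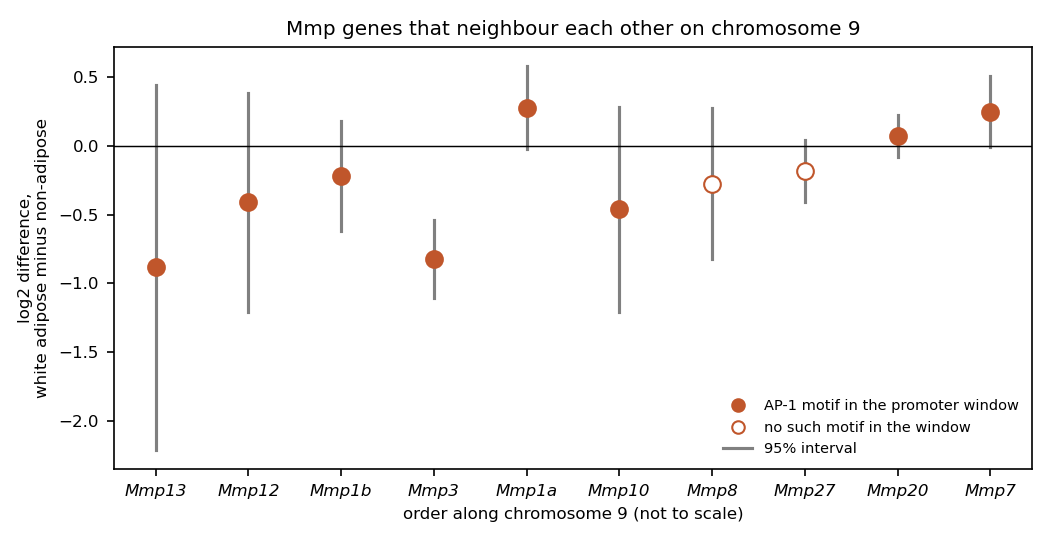
Log2 difference (white adipose minus non-adipose) with its 95% interval for the 10 neighbouring Mmp genes of chromosome 9, in their order along the chromosome; filled points hold the motif TGANTCA in their promoter window. Mmp13 and Mmp3 have the lowest values, and Mmp1a, Mmp20 and Mmp7 lie above 0.

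Among the gelatinases, which cut denatured collagen and the type IV collagen of basement membranes, Mmp9 had a lower mean in the white adipose tumours and the sign for Mmp2 depended on single arrays. Mmp9 had 7.92, 7.76 and 7.54 in white adipose tumours, against 8.07, 8.82 and 8.47 in non-adipose tumours. The groups did not overlap, but white adipose replicate 1 and non-adipose replicate 1 lay close together. The means were 7.74 ± 0.19 in white adipose and 8.45 ± 0.38 in non-adipose tumours (SD, n = 3 each), a log2 difference of -0.71 (SE 0.20, 95% interval -1.21 to -0.22; limma adjusted p = 0.936). It ran from -0.90 to -0.53 with 1 array left out.

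Among the non-adipose arrays Mmp9 was highest in replicate 2, where the mean of the neutrophil markers was lowest. S100a8, S100a9, Retnlg, Csf3r and Cxcr2 were lowest there among these arrays, whereas Ly6g, Mpo, Camp, Ltf and Ngp were not. The part of the neutrophil markers in the Mmp9 values was not tested. Macrophage markers (3 of 8 with a lower white adipose mean) averaged 8.77 to 8.88 on the white adipose and 8.86 to 8.95 on the non-adipose arrays. Mmp2 had 9.03, 8.77 and 7.82 in white adipose tumours and 8.03, 8.96 and 8.79 in non-adipose tumours, with a range over 1 log2 unit within the white adipose group. Its log2 difference was -0.055 (SE 0.38), and it became 0.31 without white adipose replicate 3. The adjusted values do not show that Mmp2 was alike at the 2 sites, since its 95% interval ran from -0.98 to 0.87.

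Mmp12, the elastase of macrophages, had 7.51, 6.60 and 7.14 in white adipose tumours and 7.88, 6.91 and 7.70 in non-adipose tumours. On both sites replicate 2 was lowest and replicate 1 highest, and the groups overlapped; the log2 difference was -0.41 (SE 0.33), or -0.17 when white adipose replicate 2 was left out and -0.70 when non-adipose replicate 2 was. Mmp7, matrilysin, a small epithelial enzyme without the hemopexin domain, went the other way, with 5.30, 5.36 and 5.55 in white adipose tumours and 5.30, 4.997 and 5.18 in non-adipose tumours. All white adipose values lay above all non-adipose values, narrowly for replicate 1 of each group, and the log2 difference was 0.24 (SE 0.11; limma adjusted p = 0.936). A dimmer Mmp7 probe set differed by -0.13, so the 2 probe sets of the gene disagreed in direction.

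The membrane-anchored enzymes, which act at the cell surface, showed small differences. All 6 had a slightly higher mean in the white adipose tumours, with log2 differences from 0.013 to 0.12 and none at an unadjusted p under 0.05 in limma. Mmp14, which together with Timp2 activates the Mmp2 precursor, was at the 99.0 percentile of all genes, with 10.75, 10.96 and 10.68 in white adipose and 10.57, 10.86 and 10.72 in non-adipose tumours. The groups overlapped, and the log2 difference was 0.081 (SE 0.11), or -0.00028 without white adipose replicate 2. Mmp23, Mmp24 and Mmp25 also changed sign in at least 1 alternative. The remaining secreted enzymes, Mmp11, Mmp19, Mmp20, Mmp21, Mmp27 and Mmp28, had log2 differences from -0.19 to 0.20. Mmp19 had 7.66 in white adipose replicate 1 and 7.05 to 7.08 on the other 5 arrays, so its log2 difference of 0.20 was 0.0062 when that array was left out.

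Of the 4 inhibitors, Timp3 had the largest difference between the means, with a lower mean in the white adipose tumours. Timp3 is bound to the matrix and inhibits Adam and Adamts proteases as well as Mmps. It had 7.04, 6.71 and 7.02 in white adipose tumours, against 7.07, 7.73 and 8.004 in non-adipose tumours. The groups did not overlap, but non-adipose replicate 1 lay beside the white adipose arrays. The means were 6.92 ± 0.19 in white adipose and 7.60 ± 0.48 in non-adipose tumours (SD, n = 3 each), and the log2 difference was -0.68 (SE 0.25, 95% interval -1.28 to -0.076; limma adjusted p = 0.936). It was -0.94 without non-adipose replicate 1 and -0.47 without non-adipose replicate 3. Skeletal muscle markers were high in non-adipose replicates 1 and 3, of which Timp3 was high only in replicate 3; their part in the Timp3 values was not tested.

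Timp1, the inducible inhibitor of most secreted Mmps, had 8.47, 8.16 and 8.18 in white adipose tumours and 8.56, 8.46 and 8.23 in non-adipose tumours. Timp2 had 10.53, 10.81 and 10.58 in white adipose tumours and 10.29, 10.67 and 10.52 in non-adipose tumours. Timp4 had 4.66, 4.97 and 4.83 in white adipose tumours and 5.15, 4.67 and 4.82 in non-adipose tumours. The groups overlapped for these 3 inhibitors, with log2 differences of -0.15 (SE 0.13), 0.15 (SE 0.12) and -0.059 (SE 0.15) for Timp1, Timp2 and Timp4.

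No Adamts gene was at an unadjusted p under 0.05 in limma. Of the 7 that cut proteoglycans such as aggrecan and versican, 3 had a higher and 4 a lower mean, with log2 differences from -0.17 to 0.12. Adamts1 had 9.84, 10.19 and 10.15 in white adipose tumours and 10.07, 10.27 and 10.22 in non-adipose tumours. Adamts4, the inflammation-induced aggrecanase, had 6.86, 7.37 and 7.20 in white adipose tumours and 7.16, 7.28 and 7.12 in non-adipose tumours. Both genes overlapped between the groups, with log2 differences of -0.13 (SE 0.11) for Adamts1 and -0.042 (SE 0.14) for Adamts4. Adamts5, the main aggrecanase of mouse cartilage, had 4.90, 4.83 and 4.59 in white adipose tumours and 4.78, 4.64 and 5.41 in non-adipose tumours, with non-adipose replicate 3 alone above the rest; its log2 difference of -0.17 became 0.065 without that array.

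Adamts14, which removes the amino-terminal propeptide of fibrillar procollagens, had 7.43, 7.74 and 7.82 in white adipose tumours, against 7.98, 8.08 and 7.83 in non-adipose tumours. The groups did not overlap, though white adipose replicate 3 and non-adipose replicate 3 nearly met, and the log2 difference was -0.30 (SE 0.12; limma adjusted p = 0.936). A second, dimmer Adamts14 probe set differed by -0.0044. Adamts3, of the same class, had 4.20, 4.24 and 4.38 in white adipose and 4.30, 4.06 and 4.24 in non-adipose tumours. Adamts2, also of this class, was not among the 49 genes.

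Adamts12, which cuts cartilage oligomeric matrix protein, varied more among the white adipose tumours than between the sites. It had 8.20, 6.63 and 6.99 in white adipose tumours and 7.20, 7.44 and 6.63 in non-adipose tumours. Its log2 difference of 0.18 (SE 0.43) was -0.28 without white adipose replicate 1, the array with the high skin epithelial markers. The mean of the smooth muscle and pericyte markers was also highest on that array (7.98, against 6.98 to 7.42 on the other 5 arrays). Acta2, Myh11, Cnn1 and Tagln were highest there. Rgs5 was highest on non-adipose replicate 3 and Cspg4 on non-adipose replicate 1. The part of any of these markers in the Adamts12 values was not tested. Adamts6 had 8.40, 9.44 and 9.15 in white adipose tumours and 8.84, 8.34 and 8.99 in non-adipose tumours, and its log2 difference of 0.28 (SE 0.30) became 0.58 when white adipose replicate 1 was left out and 0.058 when replicate 2 of that group was. Adamts7 had 8.14, 7.69 and 7.41 in white adipose and 7.93, 8.08 and 7.98 in non-adipose tumours, and a log2 difference of -0.25 (SE 0.18) that became -0.45 when white adipose replicate 1 was left out and -0.083 when replicate 3 of that group was. Of the 9 Adamts genes outside the proteoglycanase and procollagen classes, 7 had a higher and 2 a lower mean.

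The Adamts-like proteins lack the protease domain and bind fibrillin microfibrils. Adamtsl5 had 6.80, 6.82 and 6.52 in white adipose tumours, against 6.37, 6.24 and 6.46 in non-adipose tumours. All white adipose arrays lay above all non-adipose arrays, with replicate 3 of each group nearly level. The means were 6.71 ± 0.17 in white adipose and 6.36 ± 0.11 in non-adipose tumours (SD, n = 3 each), a log2 difference of 0.35 (SE 0.11, 95% interval 0.091 to 0.61; limma adjusted p = 0.936). Adamtsl2, which binds latent TGF-beta binding protein, had a larger but unsteady difference of 0.37 (SE 0.43), from 6.59, 8.15 and 7.51 in white adipose and 6.57, 6.997 and 7.56 in non-adipose tumours. Leaving out white adipose replicate 2 gave 0.0075, and leaving out replicate 1 of that group gave 0.79. Adamtsl1, Adamtsl3 and Adamtsl4 differed by 0.029, 0.038 and -0.13.

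**Figure D4:**
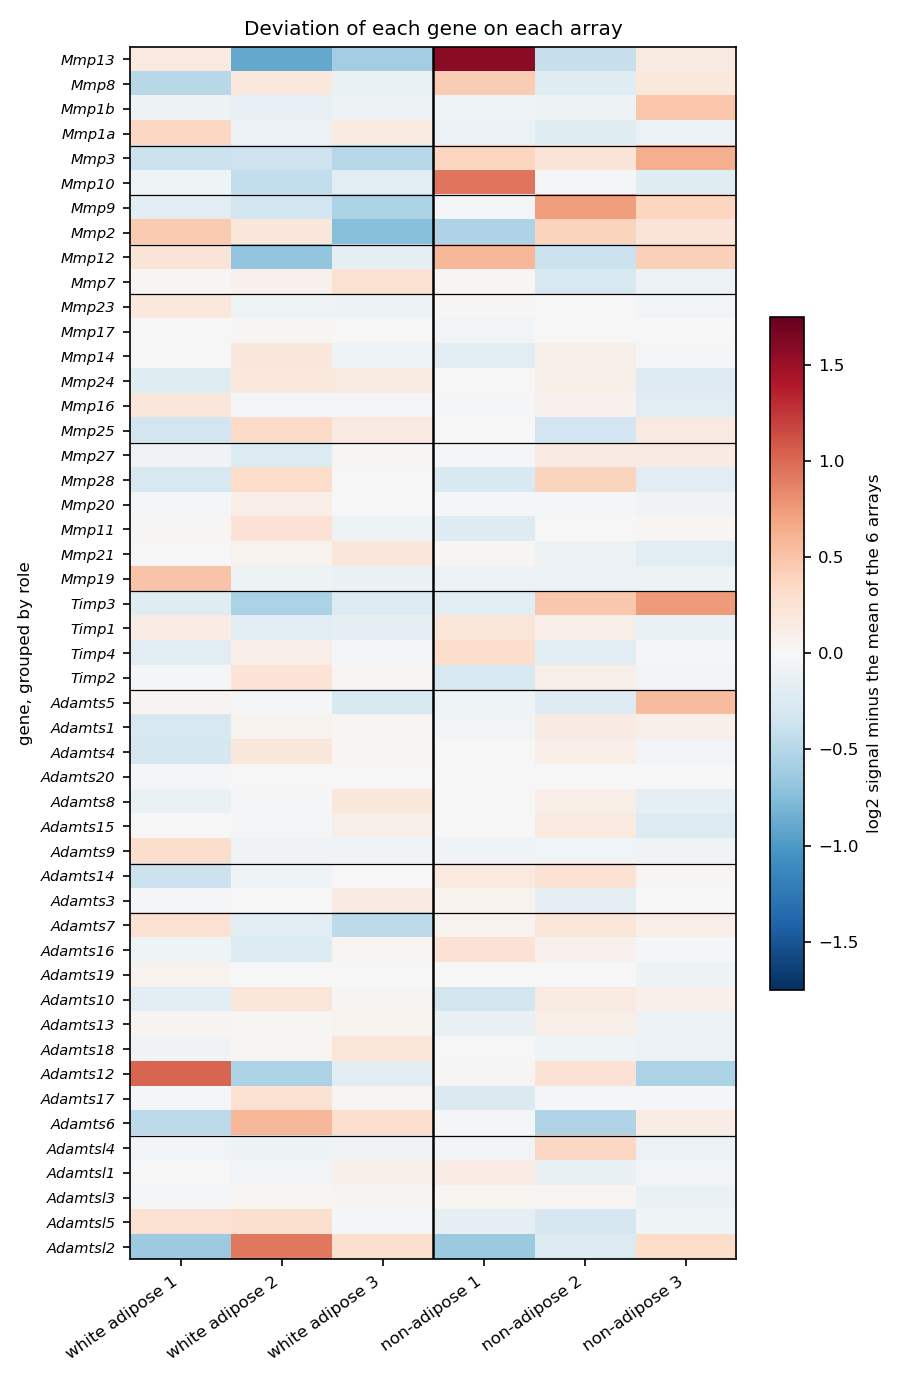
Log2 signal of each of the 49 genes on each array minus that gene's mean over the 6 arrays, with genes grouped by role and the white adipose arrays left of the line. Mmp3 is low on all 3 white adipose arrays, while Mmp13 and Mmp10 stand out on non-adipose replicate 1 and Adamts12 on white adipose replicate 1.

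The genes for AP-1 and Ets factors and for cytokines that induce Mmps were counted from a list of 18, of which 17 were measured: 4 had a higher and 13 a lower white adipose mean (50.2% of all genes had a lower one), with a median log2 difference of -0.080 against -0.00043 over all genes. None passed over all genes. At an unadjusted p under 0.05 in limma, 5 of the 17 were lower, against 2.13% of all genes. These were Fosb, Lif, Fos, Jun and Junb, the last 2 named after their values were seen. The list of 18 was chosen with earlier results of these data known, so its counts describe the list and are no test of it. Fosb had 6.98, 6.02 and 5.70 in white adipose tumours and 7.70, 7.68 and 8.14 in non-adipose tumours. Fos had 7.88, 6.18 and 6.46 in white adipose tumours and 8.28, 8.01 and 8.84 in non-adipose tumours. Among the non-adipose arrays Fos, Fosb and Mmp3 had the same order, highest in replicate 3 and lowest in replicate 2. Fosb, however, was nearly level in replicates 1 and 2 of that group. Among the white adipose arrays Fosb and Mmp3 were lowest in replicate 3, but Fosb was clearly highest in replicate 1, where Mmp3 was level with replicate 2. Fos was also highest in replicate 1 there, but lowest in replicate 2. Mmp13 and Mmp10 followed another order, with their highest value in non-adipose replicate 1. The part of these factors in the Mmp values was not tested.

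Other genes around proteolysis and the matrix showed no shared shift. A list of 22 genes covered proteolysis around cells, and not all of its members are proteases or inhibitors. Of these, 20 were measured, with 9 higher and 11 lower and a median log2 difference of -0.028. In limma 1 of the 20 was lower at an unadjusted p under 0.05, against 2.13% of all genes. That gene was Furin, the protease that activates membrane-anchored Mmps, with a log2 difference of -0.25 (SE 0.074). Plau, the urokinase, differed by -0.32 (SE 0.17) and Hpse, the heparanase, by -0.30 (SE 0.16). Of the 11 Adam relatives, 7 were higher, 4 lower and 0 at an unadjusted p under 0.05 in limma (3.79% of all genes were), with Adam23 at 0.10 (SE 0.068), Adam8 at -0.27 (SE 0.26) and Adam10 at 0.079 (SE 0.079). Of 16 measured matrix substrates, 10 were higher and 6 lower, with a median log2 difference of 0.015, and 2 were lower at that level (2.13% of all genes were): the basement membrane collagen genes Col4a1, at -0.25 (SE 0.080), and Col4a2, at -0.16 (SE 0.060). No gene of these 3 lists passed over all genes tested. These lists too were chosen with earlier results of these data known.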

How the data were processed

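Gene expression was measured in 6 mouse tumours, 3 per site, 1 array each. The deposited table holds log2 signals for 41345 probe sets, and the authors' scale was read as log2 from the range, 0.973 to 13.6, with array medians from 5.66 to 5.69. The submitters' processing notes name Affymetrix Expression Console; version, background correction and normalization: not given in the sources used here. In the deposited log2 values, 35.3% of genes have an identical value on at least 2 arrays (Adamts20 on 5), which can make the spread within a group too small. Scanner intensities, detection calls and scan batches were not used here. If the arrays were equalised, a shift common to most genes cannot be seen.

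Probe sets with exactly 1 symbol (23521) were kept, and for each gene the one with the highest mean, leaving 22180 genes. All 49 members matched RefSeq (GRCm38.p6) by Entrez identifier. The linear model was white adipose minus non-adipose over all 6 arrays, without a replicate block or mean trend (limma 3.58.1, lmFit then eBayes, under R 4.3.3), with Benjamini-Hochberg adjustment over all genes and 0.05 as the threshold. The number of arrays limits the precision. The fit was tested on simulated data. Values are printed for members at an unadjusted p under 0.05, for a fixed set of inhibitors, collagenases, stromelysins, gelatinases and main Adamts genes, and for the 2 largest differences of each family; Adamts7, Mmp19, Mmp20, Mmp21, Mmp27, Mmp28 and other members outside this rule were named after their values were seen. The members and gene lists were chosen with earlier results of these data known. Neutrophil, smooth muscle and pericyte markers were named singly after their values were seen. Replicate numbers are shared between the groups, but the labels state no pairing, so the samples were not taken as paired. Deviations from the group means correlated at 0.14, 0.064 and 0.064 for equal numbers and from -0.18 to 0.086 for unequal ones. These values do not settle whether equal numbers belong together. Alternatives were 1 array left out, other scalings, probe set choice, array weights, a filter on dim genes, another spread estimate and the replicate block.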

Additional observations from a re-analysis of the deposited data

How the results depend on the processing

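Of the 13 alternatives, 0 gave a gene at an adjusted p under 0.05 in limma, over all genes or among the 49, with unadjusted counts from 258 to 819 higher and from 336 to 981 lower. Of the 49 genes, 31 kept their direction throughout, 17 had the opposite one in at least 1 alternative, and Adamts20 differed by exactly 0 without white adipose replicate 1. With 1 array left out, the genes at an unadjusted p under 0.05 numbered 3 to 5 (4 with all arrays), 1 to 2 of them higher and 2 to 3 lower; 19 to 25 genes had a lower mean; the median difference over the 49 ran from -0.0039 (without non-adipose replicate 3) to 0.064. The count of higher genes was 2, against 1, with quantile normalization, with array weights and without non-adipose replicate 1. The replicate block gave 7 genes, 2 higher and 5 lower, adding Mmp12, Mmp13 and Mmp1a. The labels state no pairing, and not every sample correlated best with its own number. Whether equal numbers share anything is therefore not known. Adamts14 was at an unadjusted p under 0.05 in 5 of the 13 alternatives. With 1 array left out, the log2 differences of 17 genes crossed 0: Adamts10 from -0.096 to 0.16, Adamts12 from -0.28 to 0.50, Adamts15 from -0.069 to 0.14, Adamts4 from -0.15 to 0.10, Adamts5 from -0.32 to 0.065, Adamts8 from -0.052 to 0.11, Adamts9 from -0.0080 to 0.18, Adamtsl1 from -0.026 to 0.10, Adamtsl3 from -0.013 to 0.064, Adamtsl4 from -0.22 to 0.015, Mmp14 from -0.00028 to 0.15, Mmp2 from -0.34 to 0.31, Mmp23 from -0.076 to 0.063, Mmp24 from -0.0039 to 0.22, Mmp25 from -0.017 to 0.31, Mmp28 from -0.11 to 0.24 and Timp4 from -0.17 to 0.077. Array weights gave Adamts12 -0.11, Adamts4 0.041 and Mmp23 -0.046, quantile normalization Mmp23 -0.0018, and the mean of all probe sets Adamts8 -0.0012. The cause was not tested. Dim genes, such as Mmp1a and Mmp1b, have no detection call, which limits what their values show.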
